A study of Mus musculus with 55 samples.

Results

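The comparison is between mature B cells and their small pre-BII precursors, 2 resting stages of mouse bone marrow that lie after and before the appearance of immunoglobulin on the cell surface. The members are the arrays whose titles name either population: 21 of the 55 arrays, from 10 of the 26 cell preparations, 5 of each population. Mature B cells were sorted as cells with high B220 and with IgM on the surface, and small pre-BII cells as small cells with B220 and CD25 and without surface immunoglobulin. The preparations are numbered by sort, 1, 3, 8, 9 and 11 for mature B cells and 1, 3, 8, 9 and 10 for small pre-BII cells, and each was measured on 2 oligonucleotide array designs with different probe sets, here the first set and the b set. The strain, age and number of the mice, and whether sorts came from separate animals, are not given in the sources used here, so p-values cover the spread from preparation to preparation, which may be technical. The other 3 populations, pre-BI, large pre-BII and immature B cells, entered the fit that estimates the spread, and their levels are given only for orientation.

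Small pre-BII cells have stopped dividing after a burst that follows assembly of the immunoglobulin heavy chain, and they rearrange the light chain genes with the RAG recombinase. A cell that makes a complete IgM becomes an immature B cell, leaves the marrow, matures in the periphery, and may return to the marrow as a recirculating mature B cell. Mature B cells carry IgM and IgD, present peptides on MHC class II molecules, and migrate through lymphoid tissue by chemokine and sphingosine phosphate receptors.

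Trimmed means of the deposited intensities differed between arrays, from 149.2 to 687.3 for the first set and from 103.9 to 268.7 for the b set, and were evened out by quantile normalisation. The share of negative values was 22.1 to 27.1% in the first set and 37.7 to 42.4% in the b set. The spread of these negative values gave a noise limit of 251 for the first set and 319 for the b set, which 40% and 20.1% of values exceeded. Values of single preparations are normalised intensities. Population levels are geometric means after values under the limit were raised to it, and folds are ratios of these means. "At least" marks a fold whose dimmer population had no preparation over the limit; where some of its preparations lay under the limit, raising them understates the fold. Folds of different genes were not tested against each other, and errors are standard errors of the log2 difference with n = 5 against 5. Adjusted p-values come from a fit with lower floors, 87.6 for the first set and 6.89 for the b set. For genes with values under the noise limit, they therefore test another log2 difference than the one printed. For mature B sort 1 a second first-set array was titled as a repeat, but all 6529 of its values equalled those of sort 11, so it was left out. The labels do not settle which title is right. If the values belong to sort 1, the first set holds fewer than 5 mature B preparations. A 3′ probe set for 18S ribosomal RNA, a control for the RNA, read 277 to 660 in sorts 1 to 3 and 25 to 165 in sorts 8 to 11 on the first set, and with overlap on the b set, 148 to 1851 and 38 to 326, so the comparison was also made within each range of sorts.

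Of 10229 probe sets tested, 470 (4.59%) changed between the populations at an adjusted p under 0.05 (limma, two-sided, Benjamini-Hochberg over both array sets). In mature B cells 235 (2.3%) were higher and 235 (2.3%) lower, and the median difference over all probe sets was -0.01 on the log2 scale. The 5 and 5 preparations did not overlap in 501 of all tested probe sets (4.9%) and in 359 of the 470. Among 5027 genes, each taken by its brightest probe set, 157 (3.12%) rose and 168 (3.34%) fell, 325 (6.47%) in all, and 333 (6.62%) did not overlap. Within sorts 1 to 3 alone, 2 preparations against 2, 98 probe sets passed, and within sorts 8 to 11, 3 against 3, 305 passed. In sorts 1 to 3, 97.4% of these 305 had the same direction, beside 55.7% of the 10229. All 470 kept their direction within either range of sorts. Both ranges were part of the fit that called them, so this adds no separate support. In sorted bulk samples, a smaller share of cells that express a gene and less RNA per cell cannot be told apart.

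**Figure D1:**
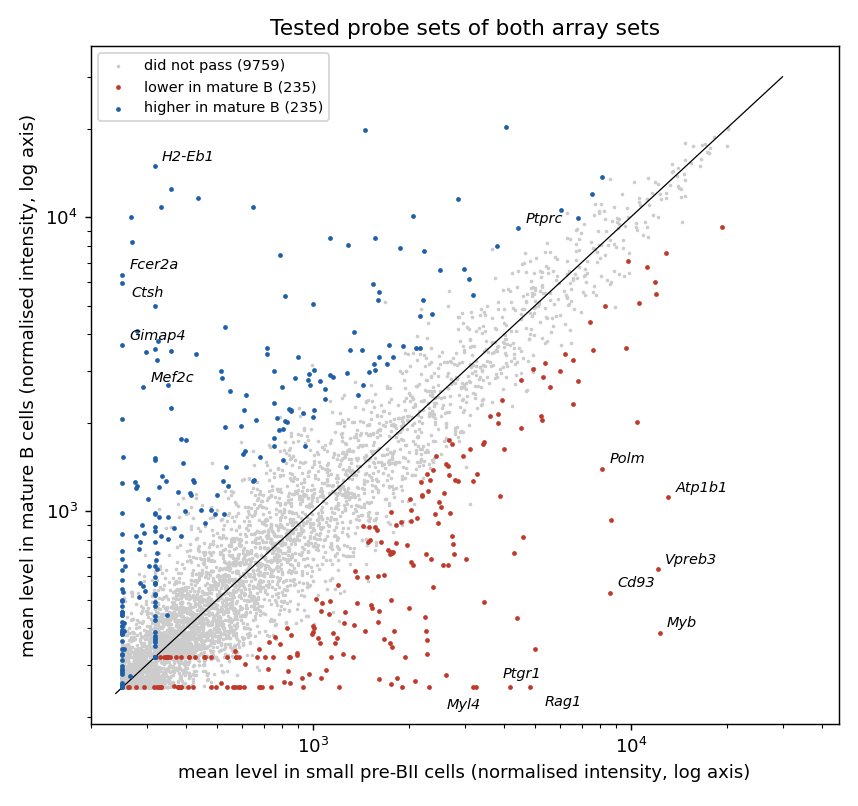
Mean level of each tested probe set in mature B cells (vertical axis) against small pre-BII cells (horizontal axis), as normalised intensity on log axes, with the 235 higher probe sets in blue, the 235 lower in red and those that did not pass in grey. Points lined up at the left and lower edges lie at the noise limit of 251 or 319 in 1 population; H2-Eb1, Fcer2a and Gimap4 stand at the left edge and Rag1, Ptgr1 and Myl4 at the lower edge.

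The genes behind the sort and the stage markers came first. Ms4a1, which encodes the B cell surface protein CD20, had levels of 7678, 10316, 7420, 8745 and 5694 in mature B cells and of 1758, 2145, 2499, 1183 and 2086 in small pre-BII cells. The groups did not overlap, and Ms4a1 rose 4.17-fold (log2 difference 2.06 ± 0.23, adjusted p = 3.99e-07). A second probe set of Ms4a1 rose 10.1-fold, from 324 to 3276 (adjusted p = 2.45e-09), and by both probe sets the gene was brighter still in immature cells, at 11900 and 6985. Ptprc, which encodes CD45, the protein whose B cell form is B220, rose 2.07-fold from 4432 to 9171 (adjusted p = 7.05e-05).

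Rag1, which encodes the catalytic subunit of the V(D)J recombinase, had levels of 6221, 5247, 2938, 3313 and 8190 in small pre-BII cells. Its highest value in mature B cells was 17.3, far under the noise limit of 251. Rag1 thus fell at least 19.2-fold (log2 difference -4.26 ± 0.28, adjusted p = 4.29e-14), and it was at the limit in immature B cells as well.

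Cxcr4, the chemokine receptor that holds precursors in the marrow, did not pass in the main fit. Its levels were 2488, 4699, 2532, 2405 and 4221 in small pre-BII cells and 1597, 2520, 581, 632 and 880 in mature B cells. The groups overlapped through mature B sort 3, and the log2 difference was -1.57 ± 0.46 (adjusted p = 0.0653, and 0.0234 without that preparation). The difference was -2.10 within sorts 8 to 11 (adjusted p = 0.0275) and -0.77 within sorts 1 to 3 (adjusted p = 0.881). The adjusted p was 0.00845 with the 2 sort ranges as a block and 0.000377 with sort number as a replicate block. A dimmer Cxcr4 probe set of the b set had an adjusted p of 0.679.

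Of the other sort genes, Il2ra, which encodes CD25, exceeded the noise limit in only 1 small pre-BII preparation, sort 1, at 437, and it did not pass (adjusted p = 0.276 by the first-set probe set). The brightest probe set of Ighm, the IgM heavy chain, did not pass either, with levels of 14060 in small pre-BII cells and 12800 in mature B cells (adjusted p = 0.818). Another Ighm probe set fell 2.09-fold, from 10640 to 5091 (adjusted p = 0.0112), with overlapping groups; that call was lost without either of 2 preparations (adjusted p = 0.0586 without mature B sort 8).

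**Figure D2:**
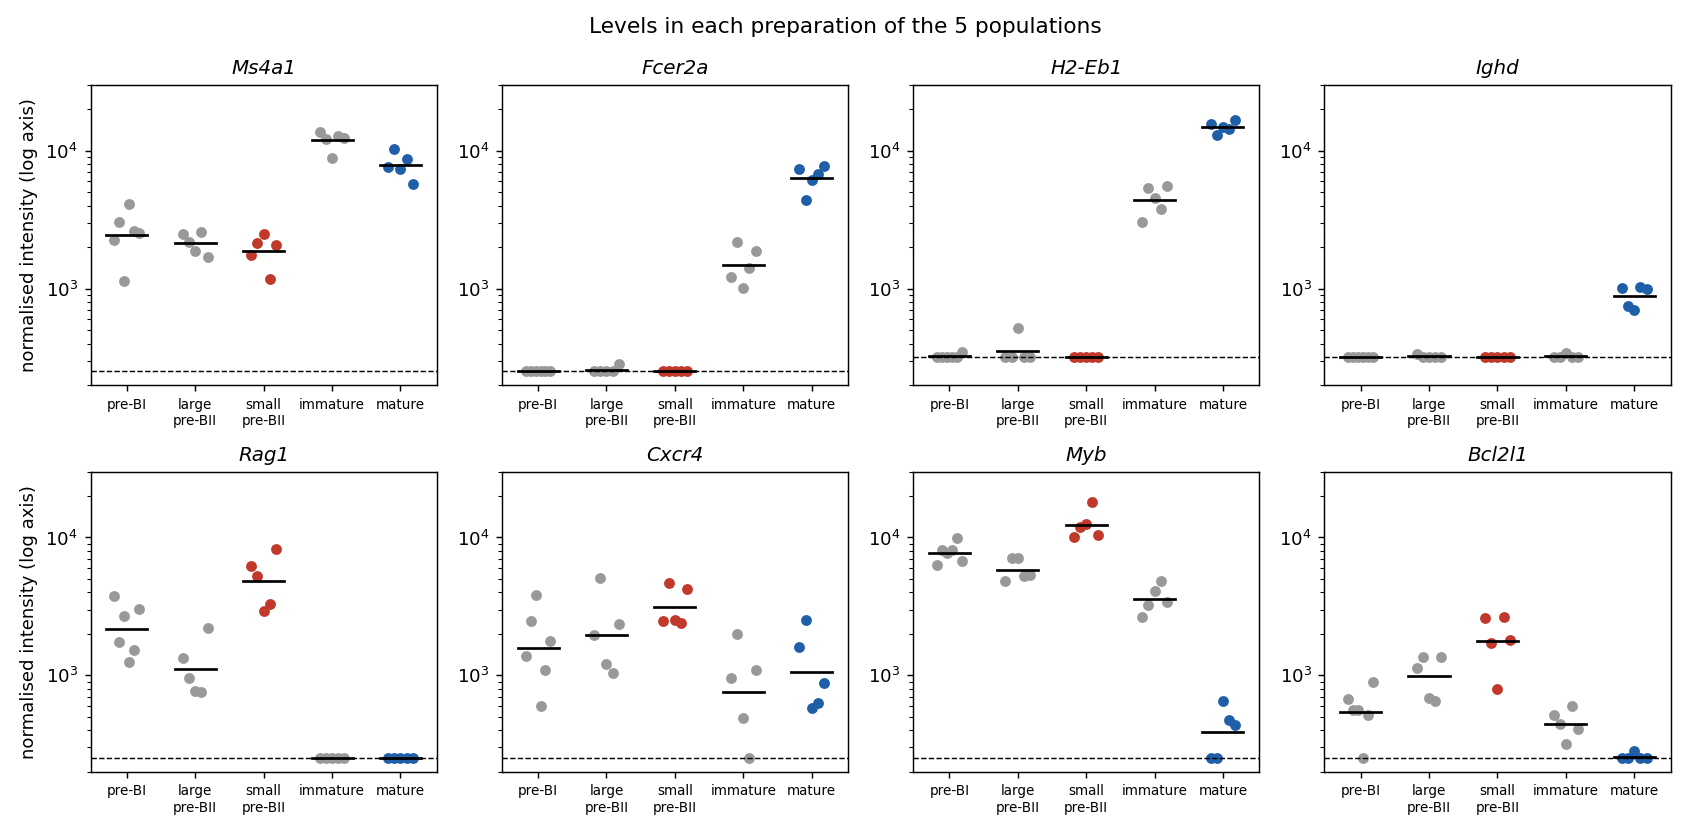
Normalised intensity (log axis) of 8 genes in each preparation of the 5 populations, small pre-BII in red and mature B in blue; bars are geometric means and the dashed line is the noise limit, to which lower values were raised. Fcer2a, H2-Eb1 and Ighd are at the limit in all 5 small pre-BII preparations, Rag1 is at it in all 5 mature B preparations, and Cxcr4 overlaps between the groups.

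MHC class II genes rose together. Class II molecules are pairs of an alpha and a beta chain that display peptides from engulfed antigen to helper T cells; the invariant chain Cd74 escorts them, cathepsins trim it, and the DM and DO pairs control peptide loading. Of 13 tested members of the class II list, 11 were higher in mature B cells (84.6%, against 3.12% of all tested genes). In addition, 1 was lower (7.69%, against 3.34%) and 1 did not pass. The median fitted log2 difference was 2.91 against -0.01 over all tested genes. For the chains themselves, 3 promoters are shown because the genes moved together and because the Y box, a sequence of class II promoters that is bound by the factor NF-Y, can be read in them. The sequences are the 150 bases before the gene start in RefSeq on GRCm38.p6, 5′ to 3′ on the gene's strand, with the Y box in capitals: H2-Aa at chr17:34287824-34287973 on the minus strand, H2-Eb1 at chr17:34305717-34305866 and H2-Oa at chr17:34092229-34092378 on the plus strand.
H2-Aa: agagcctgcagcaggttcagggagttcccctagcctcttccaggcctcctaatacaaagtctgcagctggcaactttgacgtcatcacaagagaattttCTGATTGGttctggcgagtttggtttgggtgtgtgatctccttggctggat
H2-Eb1: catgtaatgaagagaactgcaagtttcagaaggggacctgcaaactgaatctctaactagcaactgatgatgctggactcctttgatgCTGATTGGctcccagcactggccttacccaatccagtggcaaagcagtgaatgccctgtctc
H2-Oa: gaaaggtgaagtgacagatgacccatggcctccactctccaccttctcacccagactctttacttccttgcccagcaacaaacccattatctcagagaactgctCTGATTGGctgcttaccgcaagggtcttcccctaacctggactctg
The search was for CTGATTGG on either strand (CCAATCAG on the other) from 250 bases before to 50 after the start. The box began 51 bases before the start of H2-Aa, 62 before that of H2-Eb1 and 46 before that of H2-Oa. It was in 3 of the 7 risen class II list genes for which promoters were available, and not in H2-DMb1, H2-DMa, H2-Ob or Ctss. Over all genes it was in 1346 of 32851 windows of this length (4.1%). That share counts windows, of which a gene can have several, so the 2 shares are not of the same unit. A match describes the letters only.

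H2-Eb1, a class II beta chain, had levels of 15541, 13079, 14965, 14373 and 16826 in mature B cells and none above 23.6 in small pre-BII cells. It rose at least 46.8-fold (log2 difference 5.55 ± 0.06). The adjusted p of 1.04e-08 belongs to the fitted log2 difference, 10.72 ± 1.06, which includes values under the noise limit. A second probe set of H2-Eb1 was over the limit in all 5 small pre-BII preparations and rose 1.95-fold, from 653.5 to 1275, with overlapping groups (adjusted p = 0.0232). The alpha chain H2-Aa was read by 5 probe sets, and all rose, by 13.5-fold to 34.9-fold. In its brightest probe set H2-Aa had levels of 21829, 16420, 18655, 20543 and 21829 in mature B cells against 1715, 1175, 1717, 1307 and 1476 in small pre-BII cells. H2-Ab1, the beta chain that pairs with H2-Aa, rose 32.6-fold from 332.5 to 10820 (adjusted p = 2.52e-05).

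The loading machinery rose as well. The DM chains H2-DMb1 and H2-DMa, which exchange peptides on class II, rose 11.6-fold and at least 11.1-fold (adjusted p = 1.76e-09 and 1.47e-09). The DO chains H2-Ob and H2-Oa, which restrain DM, rose 7.51-fold and 5.81-fold (adjusted p = 1.31e-07 and 2.38e-05). The invariant chain gene Cd74 was already bright in small pre-BII cells, at 4050, and rose 5.0-fold to 20260 (adjusted p = 2.33e-05). Ciita, the coactivator on which class II transcription depends, passed at very low levels: 3 of 5 mature B preparations and none of the small pre-BII preparations exceeded the limit (at least 1.11-fold, adjusted p = 0.000243).

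The cathepsins of the list differed in direction. Ctsh, a lysosomal protease, had levels of 5247, 6450, 7279, 5767 and 5331 in mature B cells, and in small pre-BII cells only sort 8, at 252, reached the limit. Against this limit Ctsh rose 23.7-fold, which is in effect a lower bound (log2 difference 4.57 ± 0.09, adjusted p = 7.22e-11). Ctss, the protease that cleaves the invariant chain, rose 2.10-fold from 3786 to 7953 (adjusted p = 0.000788). Ctsb fell 1.94-fold, from 2197 to 1131, with an adjusted p of 0.0366 that was lost without any 1 of 7 preparations (up to 0.114, without mature B sort 1), and a second Ctsb probe set did not pass (adjusted p = 0.946). Lgmn, another lysosomal protease, did not pass (adjusted p = 0.75).

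Class II is also made by dendritic cells and macrophages, so their markers are given beside it. None of 15 tested marker genes of these cells passed, against 6.47% of all tested genes. Their summed level was 5762 to 7050 in mature B preparations and 5962 to 7616 in small pre-BII preparations. Marker sums here are of values raised to the limit, so genes under it add a constant. Of the 15, 4 to 5 exceeded the limit in each mature B and 3 to 5 in each small pre-BII preparation. Adgre1, C1qa, C1qc, Flt3, Marco, Mrc1 and Msr1 were at the limit in all 10 preparations. The 2 brightest, Cst3 and Ctsd, were over it in all 10. They were at 1579 and 796 in small pre-BII cells and at 984.9 and 895.2 in mature B cells. Markers of other blood cells did move. Of 13 granulocyte markers, 2 rose (15.4%, against 3.12% of all tested genes) and none fell. Lyz2 rose 2.12-fold (adjusted p = 0.00625), with levels of 4509, 3083, 3877, 3581 and 3450 in mature B cells against 2361, 2199, 1357, 1364 and 1624. Prtn3 also rose, from the limit to 407 (adjusted p = 0.000353), while Mpo, Camp, Ltf, Lcn2 and Ly6g were at the limit in all 10 preparations. Ngp, bright like Lyz2, was at 1694 in small pre-BII and 3187 in mature B cells, with overlapping groups. It did not pass in the main fit (adjusted p = 0.139), but did when equal sort numbers formed a block (adjusted p = 0.0263). The fitted log2 difference was above 0 for 10 of the 13 markers. Its median was 0.80, beside -0.01 over all tested genes, and was not tested. The summed granulocyte markers were 9813 to 12889 in mature B and 6142 to 8327 in small pre-BII preparations, without overlap. Of 8 erythroid markers, only Car2 passed (12.5%, against 3.12% higher among all tested genes), with a 4.35-fold rise (adjusted p = 0.000723). Gata1 was at the limit throughout, and the sums were 12689 to 17746 in mature B and 6590 to 15566 in small pre-BII preparations. Hba-a1, the brightest, was at 8072 in small pre-BII and 11100 in mature B cells and did not pass (adjusted p = 0.372). None of 13 T and NK cell markers passed, against 6.47% of all tested genes. Their sums were 4743 to 6661 in mature B and 4630 to 7395 in small pre-BII preparations. Of the 13, 1 exceeded the limit in each mature B and 1 to 3 in each small pre-BII preparation. Cd2, the brightest, was at 2152 in small pre-BII and 2024 in mature B cells (adjusted p = 0.984). The part of these other cells in the results was not tested.

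Class I molecules present peptides from inside the cell and are carried by nearly all nucleated cells. Of 12 tested members of the class I list, 2 rose (16.7%, against 3.12% of all tested genes) and none fell. H2-M3, a non-classical class I chain, rose 2.08-fold from 1003 to 2086 (adjusted p = 0.024, lost without any 1 of 3 preparations, up to 0.09 without small pre-BII sort 8). Psmb8, an immunoproteasome subunit, rose 1.85-fold (adjusted p = 0.00882). H2-K1, H2-D1 and B2m did not pass (adjusted p = 0.85, 0.924 and 0.939), with levels of 6205 to 10420 in both populations.

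B cell surface genes were another group of rises. Of 23 tested surface, complement and Fc receptor genes, 11 rose (47.8%, against 3.12% of all tested genes) and 2 fell (8.7%, against 3.34%). Fcer2a encodes CD23, the low-affinity IgE receptor of mature follicular B cells. Its levels were 7367, 4409, 6178, 6743 and 7728 in mature B cells and none reached the limit in small pre-BII cells, so the rise was at least 25.3-fold (log2 difference 4.66 ± 0.14, adjusted p = 1.34e-12). Ltb, which encodes lymphotoxin beta, a cytokine that organises lymphoid tissue, had levels of 5670, 5124, 4808, 3623 and 2274 against 415 at most, and rose 14.6-fold (adjusted p = 3.30e-09). Cd83, a surface protein that is also induced by NF-kB, rose 11.6-fold from 299.1 to 3474 (adjusted p = 7.17e-09). The IL-4 receptor chain Il4ra rose 7.94-fold and the complement regulator Cd55 6.26-fold (adjusted p = 5.02e-07 and 2.39e-06).

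Further rises on this list were those of Ly86 (2.47-fold), Fcgrt (2.10-fold) and Cd53 (2.08-fold), with adjusted p of 0.000844, 0.00715 and 0.00466; a dimmer Cd53 probe set did not pass (adjusted p = 0.124). Cr2, the complement receptor CD21, rose at least 1.87-fold (adjusted p = 0.0011) and Cd40, the receptor for T cell help, at least 1.15-fold (adjusted p = 0.000287). Both were low: Cr2 exceeded the limit in 5 and Cd40 in 3 of 5 mature B preparations, and neither did in small pre-BII cells. A first-set probe set of Cr2 was at the limit in both populations. Cd1d1, which presents lipid antigens, went the other way, from 1534 to 467.4 (3.28-fold lower, adjusted p = 1.56e-05). Fcrla, an Fc receptor-like protein kept inside the cell, fell 2.24-fold (adjusted p = 0.0121, and 0.0508 without small pre-BII sort 3).

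Receptors that guide migration rose in 4 of 17 tested members of the homing list (23.5%, against 3.12% of all tested genes), and none fell. Itgb7, the integrin chain used for entry into gut tissue, had levels of 1012, 774, 1813, 1574 and 1360 in mature B cells and none over the limit in small pre-BII cells (at least 4.97-fold, adjusted p = 1.91e-06). S1pr1, the sphingosine phosphate receptor needed to leave lymphoid tissue, rose 3.27-fold from 594 to 1944 (adjusted p = 0.00427). Cxcr5, which draws B cells into follicles, had levels of 2488, 1081, 1070, 536 and 589 in mature B cells, all above those of small pre-BII cells, of which the highest was 61 (at least 3.08-fold, adjusted p = 8.34e-06). Ccr7, the receptor for T zone chemokines, rose 2.60-fold (adjusted p = 0.0143, and 0.0607 without mature B sort 1). Klf2, a regulator of migration genes, did not pass, with levels of 4319 and 4841 (adjusted p = 0.896).

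Inhibitory coreceptors and phosphatases rose in 4 of 11 tested members (36.4%, against 3.12% of all tested genes). Cd22, a lectin that dampens receptor signals, had levels of 5224, 2038, 3479, 3202 and 4442 in mature B cells and of at most 758 in small pre-BII cells, a rise of 9.80-fold (log2 difference 3.29 ± 0.37, adjusted p = 1.10e-06). Ptpn6, the phosphatase SHP-1 that Cd22 recruits, rose 3.27-fold from 1600 to 5232 (adjusted p = 3.84e-05). Ptpn22, a phosphatase acting on Src family kinases, passed with 3 of 5 mature B preparations above the limit (at least 1.52-fold, adjusted p = 0.014, and 0.0669 without mature B sort 8). Cd72 and Csk, which have like roles, did not pass (adjusted p = 0.487 and 0.859).

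Of 17 tested genes that pass on receptor signals, 1 fell (5.88%, against 3.34% of all tested genes) and none rose. Syk, the kinase that binds the phosphorylated receptor, fell 1.97-fold, with levels of 11990, 13749, 11784, 12845 and 9484 in small pre-BII cells and of 6762, 6674, 4806, 5696 and 6422 in mature B cells (adjusted p = 0.00324). The receptor's signalling chains Cd79a and Cd79b did not pass, at 3350 and 3095 for Cd79a and 11780 and 10200 for Cd79b (adjusted p = 0.949 and 0.794). The Src family kinase Blk and the phospholipase Plcg2 did not pass (adjusted p = 0.995 and 0.882). Among 7 immunoglobulin chain genes, 1 rose and 1 fell (14.3% each, against 3.12% and 3.34% of all tested genes). Ighd, the IgD heavy chain, was above the limit in all 5 mature B preparations, from 701 to 1023, and in no small pre-BII preparation. Its rise was at least 2.78-fold (adjusted p = 0.0203, lost without either of 2 preparations, 0.0912 without small pre-BII sort 10). Iglc1, a lambda light chain constant gene, fell 2.57-fold from 5271 to 2048 (adjusted p = 0.000307).

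Genes of recombination and of earlier stages fell. In the V(D)J recombination and end joining list this held for 5 of 11 tested genes (45.5%, against 3.34% of all tested genes), and none rose. Besides Rag1, 1 of them was Polm, a polymerase that fills gaps at light chain joins, which fell 5.83-fold from 8125 to 1393 (log2 difference -2.54 ± 0.31, adjusted p = 2.55e-07). The recombinase partner Rag2 had levels of 369, 627, 796, 585 and 412 in small pre-BII cells and none over the limit in mature B cells (at least 2.13-fold, adjusted p = 0.00123). The DNA-bending cofactors Hmgb2 and Hmgb1 fell at least 2.66-fold and 2.15-fold (adjusted p = 0.00527 and 9.69e-06). Both Hmgb genes are also linked to division, and both were brightest in large pre-BII cells, at 8998 and 13170. Dntt, Xrcc5, Prkdc, Atm, H2ax and Trp53bp1 did not pass; Dntt and Xrcc5 were at the limit in both populations.

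In the list of surrogate light chain and progenitor genes, 9 of 17 tested members fell (52.9%, against 3.34% of all tested genes) and none rose. Myb, a transcription factor of blood progenitors, had levels of 10073, 11994, 12455, 18089 and 10453 in small pre-BII cells and of 175, 208, 650, 476 and 439 in mature B cells. Its fall was 31.9-fold (log2 difference -5.0 ± 0.31, adjusted p = 1.71e-15), while a dim b-set probe set of Myb, above the limit in 1 mature B preparation, did not pass (adjusted p = 0.354). Vpreb3, a chaperone of newly made immunoglobulin chains, fell 19.2-fold from 12180 to 633.6 (adjusted p = 1.83e-09). Cd93, a surface marker of immature B lineage cells, fell 16.3-fold from 8597 to 528.9 (adjusted p = 8.23e-14). Smarca4, an ATPase of chromatin remodelling complexes, fell 9.29-fold from 8667 to 933.2 (adjusted p = 2.08e-12).

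Cd24a, a surface protein that declines with B cell maturation, fell 1.71-fold from 12930 to 7573 (adjusted p = 3.07e-05). Il7r, the receptor for the growth factor of B cell precursors, exceeded the limit in 4 small pre-BII preparations and in no mature B preparation (at least 1.53-fold, adjusted p = 0.0325), and lost its call without any 1 of 9 preparations (up to 0.11, without small pre-BII sort 1). Gfra1 passed from levels close to the limit (adjusted p = 0.017). The surrogate light chain genes Igll1 and Vpreb1 did not pass; Igll1 was at the limit in both populations and Vpreb1 at 541.2 and 324.5 (adjusted p = 0.538 and 0.334).

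**Figure D3:**
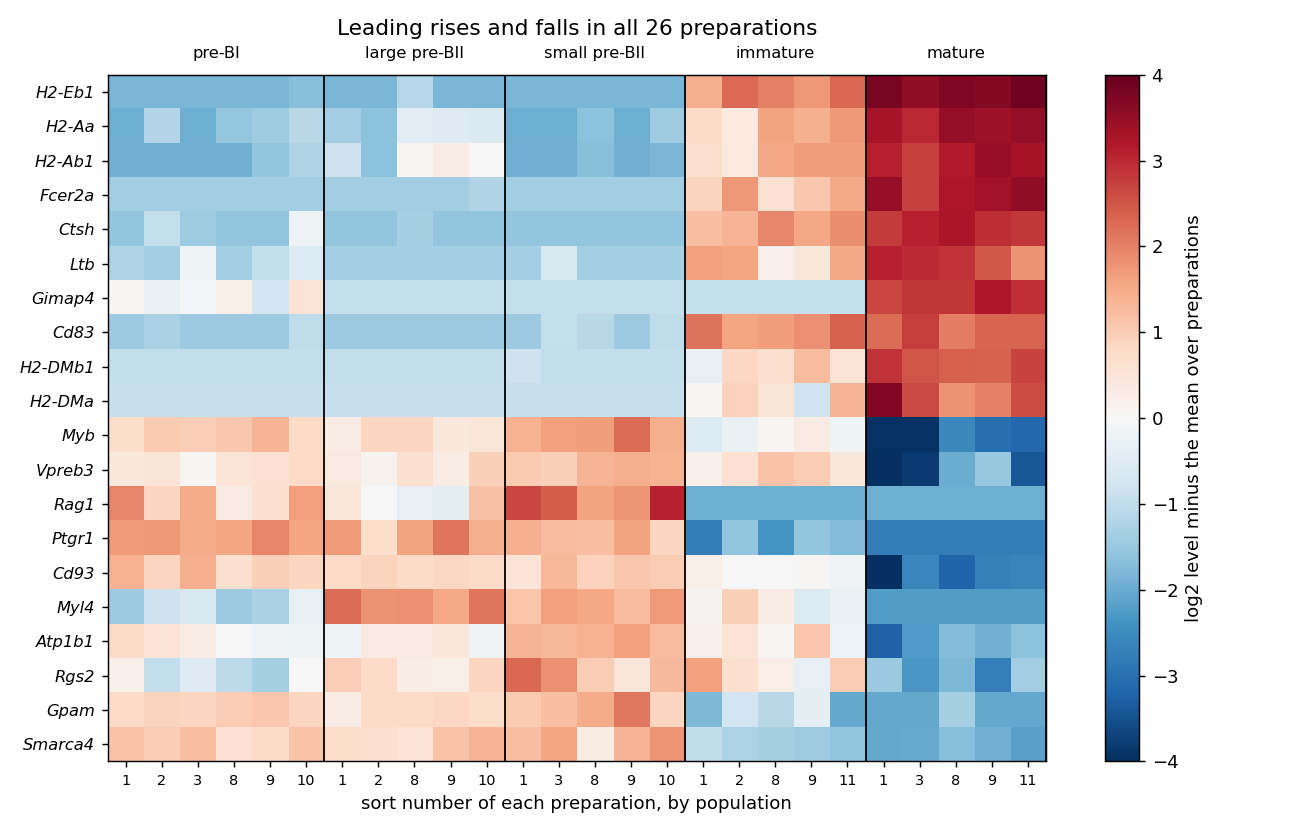
Log2 level minus the gene's mean over all 26 preparations, for the 10 rises (upper rows) and 10 falls (lower rows) that lead by the folds given here, with columns grouped by population and labelled by sort number. Values were raised to the noise limit first; red is above and blue below the gene's mean, and within each of the 2 populations compared the 5 columns have the same sign for each gene shown.

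The remaining leading falls had roles outside these lists. Ptgr1, an enzyme that breaks down prostaglandins, had levels of 4614, 4065, 3997, 5273 and 3153 in small pre-BII cells and none over 30 in mature B cells (at least 16.6-fold, adjusted p = 1.48e-16). Myl4, which encodes a light chain of embryonic and atrial myosin, fell at least 12.9-fold from 3251 (adjusted p = 8.23e-14). Atp1b1, a subunit of the sodium pump, had levels of 12845, 12364, 13058, 15541 and 11990 against 521, 1040, 1502, 1312 and 1600, an 11.8-fold fall (adjusted p = 9.72e-12). Rgs2, which shortens G protein signals, fell 10.1-fold from 4381 to 434.5, and Gpam, an enzyme of triglyceride synthesis, 9.47-fold from 2626 to 277.2 (adjusted p = 9.80e-08 and 1.76e-09). Among the leading rises outside the class II and surface lists was Gimap4, a GTPase of lymphocytes. Its levels were 3135, 3532, 3556, 4598 and 3669 in mature B cells with none over the limit in small pre-BII cells (at least 14.6-fold, adjusted p = 8.23e-14).

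Transcription factors of the B lineage split, with 4 of 23 tested members higher (17.4%, against 3.12% of all tested genes) and 5 lower (21.7%, against 3.34%). Mef2c, a factor needed for proliferation after receptor signals, rose 9.03-fold, from 292.9 to 2643, with levels of 2165 to 3244 in mature B cells and of 412 at most in small pre-BII cells (adjusted p = 1.91e-06). Id3, an inhibitor of E proteins, rose 3.63-fold from 531 to 1927 (adjusted p = 5.71e-06). Irf8 rose 2.38-fold (adjusted p = 0.00128). Ets1 rose 2.11-fold (adjusted p = 0.0274), lost its call without any 1 of 4 preparations (up to 0.134, without small pre-BII sort 9), and did not pass by a second probe set (adjusted p = 0.976).

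Irf4, which acts with its relative Irf8 in light chain activation and later in plasma cells, had levels of 2957, 5200, 1746, 8190 and 6743 in small pre-BII cells and of 385, 828, 1284, 790 and 612 in mature B cells. It fell 5.96-fold (log2 difference -2.57 ± 0.50, adjusted p = 1.06e-05), in the opposite direction to Irf8. Of 6 tested plasma cell markers Irf4 alone passed (16.7%, against 3.34% lower among all tested genes). Their sums, of values raised to the limit, were 1709 to 2772 in mature B and 3070 to 9603 in small pre-BII preparations. These sums include Irf4 and largely restate its difference, so they are no separate observation. Xbp1, a factor of antibody secretion, did not pass (adjusted p = 0.996), and Igha and Sdc1 were at the limit in all 10 preparations. Sox4, a factor of precursor survival, fell at least 3.58-fold (adjusted p = 0.00217), with levels of 3741 and 3490 in small pre-BII sorts 1 and 3 and of 301, 425 and 1100 in sorts 8, 9 and 10. The E protein Tcf12, which Id3 can bind, fell 3.16-fold, and Pou2af1, the coactivator OCA-B, 2.45-fold (adjusted p = 3.92e-05 and 0.00226). Ebf1, Tcf3 and Spib did not pass (adjusted p = 0.876, 0.697 and 0.888), and Pax5 and Ikzf1 were at the limit in both populations.

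**Figure D4:**
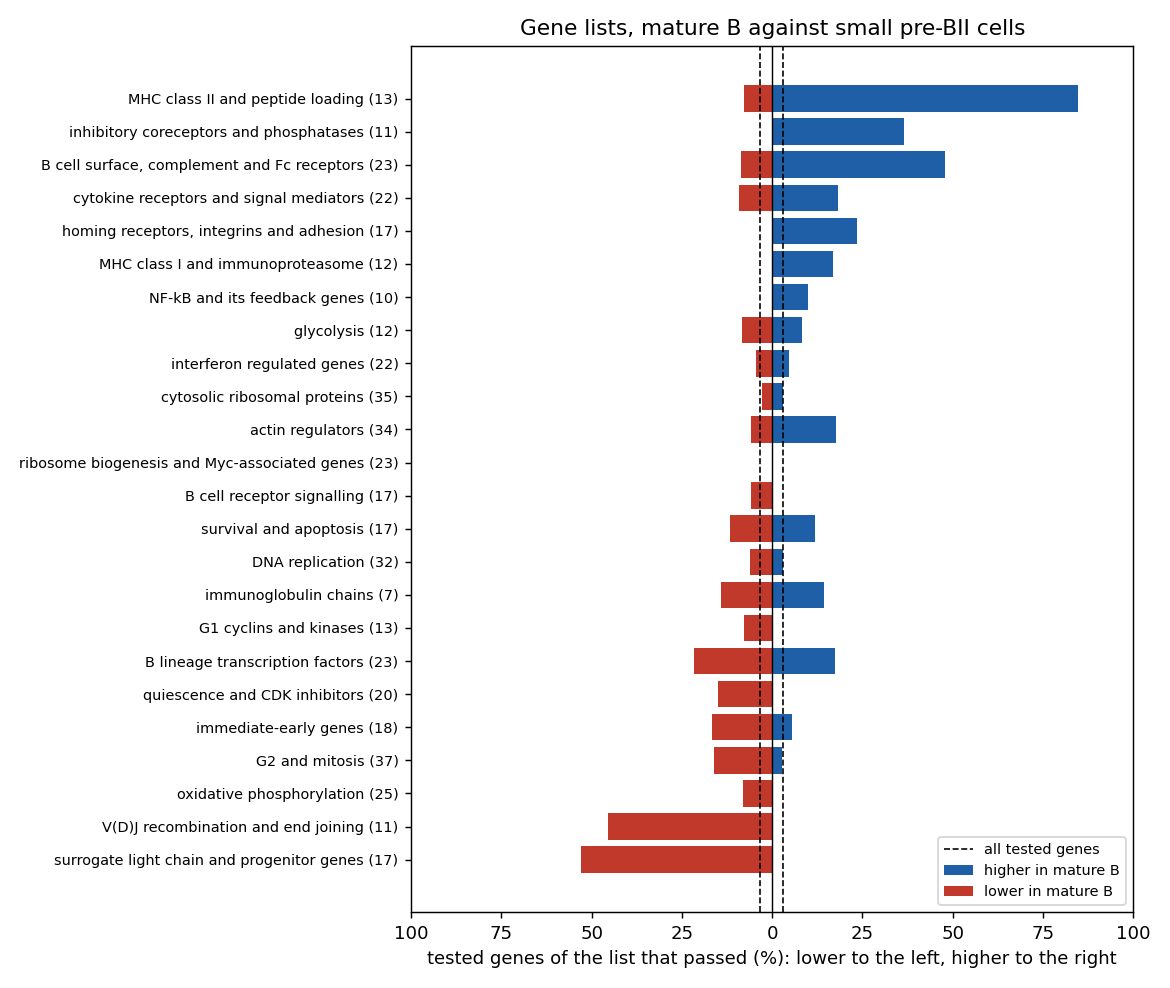
Share of the tested genes of each list that passed, higher in mature B cells to the right in blue and lower to the left in red, with the number tested in brackets; dashed lines mark the 3.12% higher and 3.34% lower among all tested genes. The class II list reaches 84.6% higher, the surface list 47.8% higher, the progenitor list 52.9% lower and the recombination list 45.5% lower. The lists share genes and were chosen with earlier results known.

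Survival genes changed in both directions, also within the Bcl2 family. Of 17 tested, 2 rose and 2 fell (11.8% each, against 3.12% and 3.34% of all tested genes). Bcl2, which blocks cell death at mitochondria, was above the limit in all 5 mature B preparations, from 349 to 674, and in none of small pre-BII cells (at least 1.98-fold, adjusted p = 9.6e-05), although a second Bcl2 probe set did not pass (adjusted p = 0.912). Bcl2l1, which encodes the related Bcl-xL, had levels of 2611, 1712, 794, 2671 and 1818 in small pre-BII cells and exceeded the limit in 1 mature B preparation, sort 8, at 285. It fell 6.85-fold (log2 difference -2.78 ± 0.32, adjusted p = 7.28e-07), and 2 dim b-set probe sets of Bcl2l1 did not pass. Pim2, a survival kinase, fell 4.53-fold from 1671 to 368.6 (adjusted p = 0.00075). Casp1 passed with all values under the limit, so no fold is given, and a second Casp1 probe set did not pass (adjusted p = 0.864). Mcl1, Bcl2l11 and Birc3 were among the 13 of 17 tested members that did not pass (adjusted p = 0.209, 0.459 and 0.474).

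Cytokine receptors and their mediators held 4 rises and 2 falls among 22 tested genes (18.2% and 9.09%, against 3.12% and 3.34% of all tested genes). Besides Il4ra, Stat4, a mediator of cytokine signals, rose 4.56-fold from 275.6 to 1258 (adjusted p = 7.40e-08). Il10ra and Il10rb, which together form the IL-10 receptor, rose 2.23-fold and at least 2.33-fold (adjusted p = 0.0253 and 0.0221). Both lost the call when 1 preparation was left out, Il10ra for 5 of the 10 (up to 0.102, without small pre-BII sort 1) and Il10rb for 3 (up to 0.0719, without mature B sort 8). Socs1, an inhibitor of cytokine signals, fell with Il7r: it was at 2120, 1040 and 1148 in small pre-BII sorts 1, 3 and 10 but under the limit in sorts 8 and 9 and in all mature B preparations (adjusted p = 0.0152, lost without any 1 of 3 preparations, up to 0.0764 without small pre-BII sort 1).

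Of 18 immediate-early genes, which respond first to cell signals, 1 rose (5.56%, against 3.12% of all tested genes) and 3 fell (16.7%, against 3.34%). Ier2 rose at least 3.33-fold to 836.9 (adjusted p = 2.92e-06), and Rgs2, Btg2 and Jun fell. Jun was low, at 458.2 in small pre-BII cells (at least 1.44-fold, adjusted p = 0.00168), and Fos, Egr1 and Nr4a1 did not pass (adjusted p = 0.447, 0.556 and 0.101). Of 10 NF-kB genes only Cd83 passed (10%, against 3.12% higher among all tested genes), a single call in a short list. Among 22 interferon regulated genes Gbp7 rose at least 2.72-fold to 684.9 (adjusted p = 0.000298) while Socs1 fell. The interferon list thus held 4.55% in each direction, near the 3.12% and 3.34% of all tested genes.

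Changes in the cell cycle lists were mostly falls. Of 37 tested genes of G2 and mitosis, 6 fell (16.2%, against 3.34% of all tested genes) and 1 rose (2.7%, against 3.12%). Mki67, a marker of dividing cells, had levels of 2503, 1196, 1985, 1727 and 1070 in small pre-BII cells and of 570, 389, 415, 459 and 477 in mature B cells, a 3.53-fold fall (log2 difference -1.82 ± 0.25, adjusted p = 8.62e-07), beside 12540 in large pre-BII cells. Cks1b, a subunit of cyclin-dependent kinases, fell at least 2.42-fold and Ccnb2, cyclin B2, at least 2.09-fold (adjusted p = 0.000241 and 3.70e-05); they were at 7222 and 3620 in large pre-BII cells. Kif2c, Nek2 and Stmn1 passed from levels near the limit, a second Kif2c probe set was at it in both populations, and Nek2 lost its call without any 1 of 5 preparations (up to 0.169, without mature B sort 9). Smc4, a condensin subunit, rose 1.87-fold (adjusted p = 0.0406, lost without any 1 of 7 preparations, up to 0.153 without small pre-BII sort 9). Mki67, Cks1b and Ccnb2 were thus far under their large pre-BII levels in both resting populations, and lower in mature B cells.

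Of 32 DNA replication genes, 2 fell (6.25%, against 3.34% of all tested genes) and 1 rose (3.12%, against 3.12%). Rrm2, a subunit of ribonucleotide reductase, fell 3.81-fold from 1600 to 419.7 with overlapping groups (adjusted p = 0.00703), and 3 other Rrm2 probe sets did not pass. Top1, topoisomerase I, fell 2.71-fold and Rfc1, a clamp loader subunit, rose 2.30-fold (adjusted p = 0.00525 and 0.0018). Pcna and Mcm5 missed the threshold (adjusted p = 0.0524 and 0.0521). Among 13 G1 genes only Ccnd3, cyclin D3, passed (7.69%, against 3.34% lower among all tested genes). It fell 2.31-fold by its brightest probe set (adjusted p = 0.0179), a call lost without any 1 of 3 preparations (up to 0.0928, without small pre-BII sort 1). By another probe set it fell 3.89-fold (adjusted p = 2.25e-07). Among 20 quiescence genes none rose, against 3.12% of all tested genes. Rb1, Btg2 and Ccng2 fell (15%, against 3.34%). Btg2, an antiproliferative gene, went from 6558 to 3261 and Ccng2, an unusual cyclin of arrested cells, from 2298 to 1170 (adjusted p = 0.00291 and 0.000691). Rb1, the retinoblastoma gene, fell 2.25-fold (adjusted p = 0.0159, lost without any 1 of 3 preparations, up to 0.0616 without mature B sort 9). Cdkn1b, the inhibitor p27, did not pass, at 3243 and 2432 (adjusted p = 0.49).

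Lists of growth and energy genes held 0 to 2 changed members each, beside 3.12% higher and 3.34% lower among all tested genes. None of 23 ribosome biogenesis genes passed, against the 6.47% of all tested genes; the brightest were Nme2 (adjusted p = 0.656) and Polr1c (adjusted p = 0.493). Of 35 ribosomal protein genes, 2.86% passed in each direction: Rpsa rose 1.69-fold (adjusted p = 0.00669; of 2 dimmer probe sets 1 rose and 1 did not pass, adjusted p = 0.282) and Rpl13a fell 2.66-fold (adjusted p = 0.00226). In 12 glycolysis genes, the glucose transporter Slc2a3 rose 1.34-fold near the limit (adjusted p = 0.0112), and the lactate transporter Slc16a1 fell at least 2.93-fold from 736.8 (adjusted p = 8.05e-07), with a b-set probe set at the limit in both populations; each is 8.33% of the list. For oxidative phosphorylation, 2 of 25 genes fell (8%), Vdac3 by 2.19-fold and Cox5a by 1.55-fold (adjusted p = 0.00934 and 0.0467). Cox5a lost its call without any 1 of 8 preparations (up to 0.177, without mature B sort 1). The median of this list was -0.46, with 4 of 25 genes above 0, and was not tested.

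Actin regulators had 6 rises and 2 falls among 34 tested genes (17.6% and 5.88%, against 3.12% and 3.34% of all tested genes). Lcp1, L-plastin, which bundles actin in blood cells, had levels of 9809, 8190, 10316, 11224 and 11224 in mature B cells and of 1194, 2172, 2286, 3188 and 1991 in small pre-BII cells, a 4.88-fold rise (log2 difference 2.29 ± 0.24, adjusted p = 4.79e-09), although a dim second probe set of Lcp1 did not pass (adjusted p = 0.533). Capg, which caps actin filaments, rose 3.73-fold (adjusted p = 7.54e-05), and a second Capg probe set, 3.10-fold higher, did not pass (adjusted p = 0.0629). Ezr, ezrin, rose 1.84-fold (adjusted p = 0.0443), lost without any 1 of 7 preparations (up to 0.165, without mature B sort 11). Actn1 lost its call without any 1 of 6 (adjusted p = 0.0403, up to 0.136 without small pre-BII sort 8), and Actn4 and Gsn passed from near the limit (adjusted p = 0.00626 and 0.0496), each with another probe set that did not pass (adjusted p = 0.617 and 0.99). Marcks, which links actin to the membrane under protein kinase C, had levels of 1427, 1382, 2621, 2056 and 2690 in small pre-BII cells and none over the limit in mature B cells (at least 6.14-fold lower, adjusted p = 4.82e-09). Tmsb10, an actin-binding peptide, fell 2.35-fold (adjusted p = 0.00883). Actb and Actg1 did not pass (adjusted p = 0.89 and 0.731).

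Immature B cells are the stage between the 2 populations, and their position is described here without a test. It is the distance covered by the immature mean, as a percentage of the log2 difference from small pre-BII to mature B cells. The means include values raised to the noise limit, so where a population lies at it, the position depends on that limit. It was taken for the 296 changed probe sets with an at least 2-fold difference, 146 higher and 150 lower. Of the 146 rises, 33 had covered under 25%, 67 between 25 and 75% and 46 over 75%, with a median of 56.6%. Of the 150 falls, 22, 77 and 51 lay in these ranges, with a median of 66.2%.

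Single genes lay at either end. Rag1 had covered 100% of its fall and Gimap4 0% of its rise in immature cells, where both were at the noise limit. Cd83 had covered 88.3% of its rise, while the class II chain H2-Eb1 was at 68.1% and the DM chain H2-DMa at 38.3%. No small pre-BII preparation exceeded the limit for H2-Eb1 or H2-DMa, so their positions start from the limit itself. Among falls, Ptgr1 had covered 81.1% and Smarca4 79.6%, while Rgs2 had covered 22% and Vpreb3, at 8207 in immature cells, 13.3%. Of the 146 rises, 115 had their highest mean in mature B cells, 19 in immature cells, 10 in pre-BI cells and 2 in large pre-BII cells. Of the 150 falls, 93 were highest in small pre-BII, 40 in large pre-BII, 12 in pre-BI and 5 in immature cells.

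**Figure D5:**
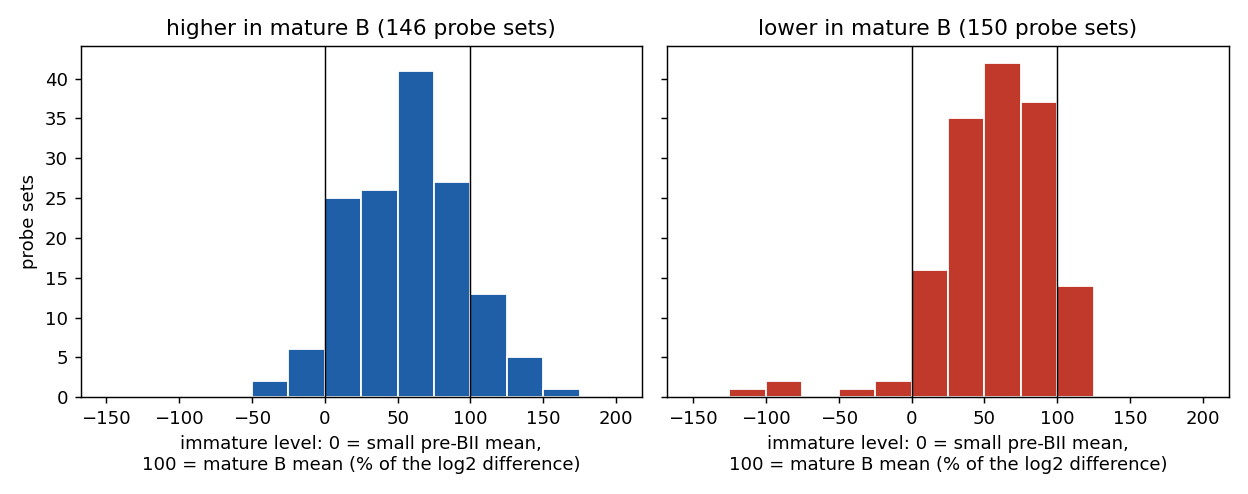
Number of changed probe sets by the position of immature B cells between small pre-BII (0) and mature B cells (100), in percent of the log2 difference and in bins of 25, for the 146 higher (left) and 150 lower (right) probe sets. Positions under 0 or over 100 are immature means outside the range of the 2 stages. The medians are 56.6 and 66.2, and means include values raised to the noise limit.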

How the data were processed

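The authors deposited 1 table per array set with linear intensities, 1 per probe set and array, including negative values; the sources used here do not say how they were scanned, summarised or scaled. Groups and sort numbers were taken from the labels. Control probe sets were removed, each table was quantile-normalised over 27 arrays, a repeat array of mature B sort 3 on the b set was averaged with its partner, and lower values were replaced by the 40th percentile (87.6 and 6.89) before log2. Testing covered the 5019 and 5210 probe sets that exceeded this floor in 5 or more of the 26 preparations. Each array set had 1 limma fit (version 3.58.1, R 4.3.3; lmFit, then eBayes with trend) over all 26 preparations, p-values were adjusted by Benjamini-Hochberg over both sets, and the threshold was 0.05. The script was tested on simulated data. "Rose" and "fell" mean that the test was passed. The noise limit is 2 robust standard deviations from the negative values; raising values to it makes standard errors small where a population lies at the limit.

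Symbols come from the platform annotation: of 13069 probe sets, 7542 had 1 symbol, 224 several and 5303 none. Probe sets of near-identical genes can share signal. Genes named are the stage markers and sort genes; the 10 largest rises and falls by fold with 1 symbol, an at least 2-fold difference, a level over the limit and no overlap; up to 5 passing members of each list in each direction, or else its 2 brightest; and, for lists of other cells, the 2 brightest genes. Further list members were named after their values were seen. Lists are described by counts and the median of the brightest probe set per gene, with no list test; no tested probe set represents the megakaryocyte list. Members and lists were chosen with earlier results of these data known. Promoters come from RefSeq on GRCm38.p6. Alternatives were other scalings, floors, sample sets, blocks and each preparation left out in turn.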

Additional observations from a re-analysis of the deposited data

Results flagged for a closer look

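In 18 of 181 groups of 5 preparations of named probe sets, 1 preparation stood apart from the other 4 by Dixon's criterion. Where the other 4 were all raised to the noise limit, any single value over it is flagged by construction, and many of the 18 are of this kind. The usual rate of about 1 in 20 groups by chance holds for values without such ties, so the 18 cannot be set against it. Values are normalised intensities raised to that limit.

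In small pre-BII cells, sort 1 stood apart for Il2ra (437 against 251), H2-DMb1 (359 against 319) and Stat4 (398 against 251). Sort 3 stood apart for Ltb (415 against 251 to 259). Sort 8 stood apart for Ctsh (252 against 251), Rfc1 (512 against 319), Nek2 (471 against 319 to 353), Rpsa (4910 against 8750 to 9810) and Cd4 (422 against 319). Sort 9 stood apart for Fcrla (1170 against 2890 to 3580), Kif2c (868 against 251 to 357), Slc2a3 (267 against 251) and Ezr (496 against 867 to 1010).

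In mature B cells, sort 1 stood apart for Smc4 (1290 against 878 to 935). Sort 8 stood apart for Gpam (410 against 251) and Bcl2l1 (285 against 251). Sort 9 stood apart for the dimmer probe set of Ms4a1 (2030 against 3320 to 3920) and for the dimmer Cxcr4 probe set (419 against 319).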

How the results depend on the processing

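Of 470 changed probe sets, 235 in each direction, each kept its direction in every alternative that gave it a value. The alternatives reuse the preparations that gave these calls, so this was not an independent check. Without normalisation between arrays 178 passed (88 higher, 90 lower). Fitting only the 10 preparations compared gave 323, with 144 lower; sorts 1 to 3 alone gave 98 (49 and 49) and sorts 8 to 11 alone 305 (154 and 151), all from fewer samples. Leaving out 1 preparation at a time gave 399 to 452 (188 to 223 higher, 193 to 239 lower). The other scalings, floors and filters, the stacked fit, the block for sort range and other uses of repeat arrays gave 400 to 534, with rises at 46.8 to 54.5% of calls. The 25th percentile of the b set is negative, so that floor was set at 1.

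Sort numbers 1, 3, 8 and 9 occur in both populations. Deviations from the group means of equal numbers correlated at -0.0077 to 0.17, over 0.1 in 3 of 4. For unequal numbers the correlations were -0.154 to 0.108. The labels do not say that equal numbers share animals or a day, so the main fit did not pair them. Whether equal numbers share an effect was not tested. With sort number as a replicate block 612 passed (305 and 307), among them 450 of the 470. Over 109 named probe sets and 25 alternatives, 2425 of 2714 comparisons stayed on the same side of the threshold, 281 lost the call, 8 gained it (7 of them Cxcr4, with an adjusted p of 0.000377 under the replicate block) and 0 reversed. With the floor at the noise limit Rag2, Il7r, Actn4, Kif2c, Nek2 and Slc2a3 no longer passed. Most values on the b set lie under the noise limit, so folds there are often bounds.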

Other observations

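Some further genes outside the lists changed; they were chosen after their values had been seen, and their adjusted p-values are from the same limma fit. Lat2, an adaptor of receptor signalling in B cells, rose at least 8.21-fold to 2064 (adjusted p = 1.76e-09). Macf1, which links microtubules to actin, rose 6.25-fold from 1288 to 8051, and the tetraspanin gene Tspan32 6.04-fold to 1526 (adjusted p = 1.61e-08 and 1.02e-07). Scd1, a fatty acid desaturase, went from 1572 to 8501 and Abca1, a cholesterol exporter, from 1343 to 4076 (adjusted p = 0.000307 and 8.49e-06). Sema4d, a semaphorin, rose 5.45-fold by 1 probe set and did not pass by another (adjusted p = 2.98e-05 and 0.967).

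Ezh2, the histone methyltransferase of Polycomb complexes, fell 7.96-fold from 2099 to 263.6, and Zfpm1, a GATA cofactor, at least 9.25-fold from 2326 (adjusted p = 1.76e-09 and 5.87e-10), while a second Zfpm1 probe set was at the limit. Idh2, a mitochondrial isocitrate dehydrogenase, fell 6.26-fold from 2284 (adjusted p = 5.80e-07). Reln, an extracellular protein known from brain development, and Prm1, a protamine of sperm, were above the limit on average in small pre-BII cells, at 1910 and 931.6, and at the limit in pre-BI, large pre-BII and mature B cells (adjusted p = 3.90e-11 and 3.72e-08). Emid1 fell 3.01-fold (adjusted p = 0.000323) but was brightest in immature B cells, at 4407.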
